A study of Mus musculus with 4 samples.

Results

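The E proteins and the Id proteins are families of helix-loop-helix factors that act against each other in lymphocytes. E proteins bind DNA at short motifs called E boxes, as dimers that pair through the helix-loop-helix domain and touch DNA through a basic region beside it. Id proteins carry the pairing domain without the basic region, so a dimer with an Id protein cannot bind. In T cells E proteins hold developmental checkpoints and Id2 and Id3 release them after antigen receptor signals. In regulatory T cells, a CD4+ lineage that keeps immune responses in check, Id2 and Id3 are known to be needed for the maintenance of the population. The genes described here are Tcf3, Tcf4 and Tcf12, the 3 E protein genes of the mouse, and Id1, Id2 and Id3, the inhibitors. They were taken by name, as the rows whose gene identifier carries these symbols in GENCODE mouse release 21, and all 6 of 6 were found among 50600 genes.

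RNA was sequenced from primary regulatory T cells of mouse strain C57BL/6NJ in 4 libraries, labelled as biological replicates 1 to 4 of 1 group, with no other treatment, genotype or control arm. All 4 carry 1 donor identifier, sex was not collected and age is given as unknown. A protocol for differentiating CD4+ cells is linked in the labels, and the output names in the file headers hold the words activated and 24h. The labels do not say whether the 4 came from separate animals or cultures, so the p-values below measure only the spread between these libraries.

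The libraries held 38590127 to 93035969 fragments assigned to genes. The labelled cell type was checked against its markers: all 5 T cell genes had a mean of at least 10 TPM (a count divided by gene length and scaled to the same total in each library), as did 4 of 5 regulatory T cell genes, with Foxp3 at 93.0 to 125 TPM. Ikzf2, the other listed regulatory T cell gene, had 3.34 to 5.25 TPM. The cells best known for particular members left few marker reads. For plasmacytoid dendritic cells, which rely on Tcf4, the defining markers Siglech, Klk1 and Cox6a2 had 0 fragments in all libraries and 1 of 7 listed genes reached 1 TPM, Bst2, which T cells also express. The list's summed level, 226 to 259 TPM, was almost all Bst2, at 225 to 258 TPM. The 7 genes include Tcf4 itself, at 0.353 to 0.534 TPM, whose own level is no check on the cells it came from. For innate lymphoid and NK cells, which rely on Id2, Ncr1 had 0 fragments, 1 of 7 listed genes reached 1 TPM (Rora, at 8.35 to 11.6 TPM) and the 7 genes summed to 9.84 to 12.6 TPM. For endothelial and stromal cells, rich in Id1 and Id3, 0 of 6 genes reached a mean of 1 TPM and the sum was 0.400 to 1.45 TPM. Pdgfrb was the highest, at 0.362 to 1.21 TPM, and Kdr, Col3a1 and Dcn had 0 fragments. The B cell list summed to 2.96 to 4.70 TPM, with Cd79b and Cd79a over 1 TPM of 6 genes, and the CD8 genes Cd8a and Cd8b1 to 17.4 to 26.0 TPM. The monocyte and macrophage list summed to 1.48 to 2.93 TPM, with 1 of 6 genes over 1 TPM and Lyz2 at 0 fragments. Of the 6 genes listed for double-positive thymocytes, 2 reached a mean of 1 TPM and Rag2 had 0 fragments. In bulk RNA such as this, fewer cells expressing a gene and less RNA per cell cannot be told apart. The libraries were not alike in all respects: the share of TPM on protein-coding genes was 88.2% in replicate 1 and 95.6 to 96.6% in the others, and Xist was high in replicates 1 and 2 (100.4 and 88.7 TPM against 0.716 and 0.603) while the Y-linked Ddx3y was high in replicates 3 and 4 (46.1 and 40.6 TPM against 0.159 and 0.101), although all 4 carry 1 donor identifier.

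Among the E proteins 1 gene dominated. Tcf3, whose protein drives B cell commitment and guards the early T cell checkpoints, had 219, 184, 227 and 222 TPM in replicates 1 to 4. Replicate 2 was the low library and the other 3 lay close together, for a mean of 213 ± 19.7 TPM (SD, n = 4), rank 866 of 21764 protein-coding genes. The gene (ENSMUSG00000020167.14) lies on chromosome 10, 80409514 to 80433647, minus strand (mm10), with 21 separate exon stretches in the counting annotation. Behind these levels stood 9855 to 24733 fragments, so counting alone would give a spread of 0.873% against the 9.26% observed.

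Tcf12, which encodes HEB, the usual partner of the Tcf3 product in thymocytes, had 26.4, 28.5, 32.5 and 29.0 TPM in replicates 1 to 4. Replicate 3 was highest and replicate 1 lowest, with a mean of 29.1 ± 2.54 TPM (SD, n = 4), near the middle of the protein-coding genes that reached 1 TPM (percentile 48.0). It spans chromosome 9, 71842688 to 72111871, minus strand, as ENSMUSG00000032228.16, and gathered 4949 to 12399 fragments.

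Tcf4, the E protein of plasmacytoid dendritic cells and of the brain, had the lowest level of the 6. Its levels were 0.353, 0.534, 0.474 and 0.485 TPM in replicates 1 to 4, a mean of 0.461 ± 0.0765 TPM (SD, n = 4). It was nevertheless counted in every library, with 117, 194, 182 and 366 fragments. Counting error was therefore larger for it than for any other member, at 7.27% on average of the 4 libraries, against a coefficient of variation of 16.6%. The gene (ENSMUSG00000053477.16) covers chromosome 18, 69343356 to 69689079, plus strand, in 36 exon stretches.

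The Id family was led by Id3. This gene, which antigen receptor signals switch on through ERK and EGR factors, had 255, 227, 247 and 248 TPM in replicates 1 to 4. Replicate 2 was lowest and replicate 1 highest. The mean was 244 ± 11.9 TPM (SD, n = 4) and the coefficient of variation, 4.88%, was the lowest of the 6 in TPM, whereas with TPM over protein-coding genes alone the SD was 21.6 around 260 TPM, wider in proportion than that of Tcf12 (30.8 ± 1.86). Id3 had rank 717 of 21764 protein-coding genes. Its 5409 to 12226 fragments map to ENSMUSG00000007872.3 on chromosome 4, 136143497 to 136145755, plus strand.

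Id2, the inhibitor of effector T cells, NK cells and innate lymphoid cells, had 36.1, 48.9, 42.5 and 46.6 TPM in replicates 1 to 4. Replicate 1 was lowest and replicate 2 highest, and the mean was 43.5 ± 5.62 TPM (SD, n = 4). It is ENSMUSG00000020644.8, chromosome 12, 25093801 to 25096092, minus strand, with 554 to 1630 fragments.

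Id1, best known as a target of bone morphogenetic protein signals and of endothelial and progenitor cells, had 41.4, 35.6, 36.1 and 42.8 TPM in replicates 1 to 4. Replicates 1 and 4 lay above replicates 2 and 3, and the mean was 38.99 ± 3.68 TPM (SD, n = 4). The gene is a single exon stretch of 1160 bp on chromosome 2, 152736251 to 152737410, plus strand, ENSMUSG00000042745.9. Id4, the remaining inhibitor of the family, had 0 fragments in all 4 libraries, which allows up to 0.0322 to 0.0777 CPM (a count scaled by the library total alone, here from 3 fragments in the deepest and the shallowest library).

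**Figure D1:**
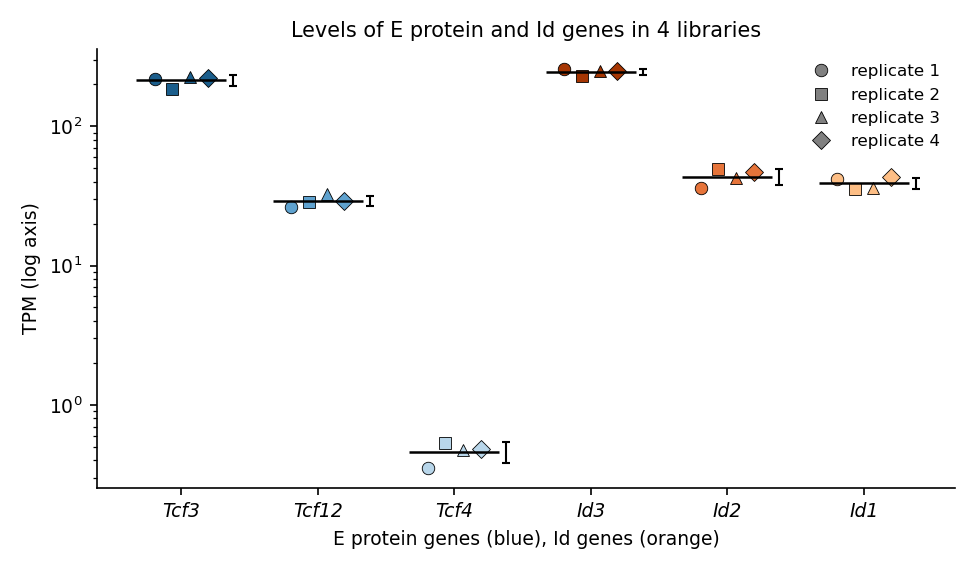
TPM of each gene in the 4 libraries on a log axis; symbols mark the replicate, the horizontal line is the mean and the bar beside it the SD. Id3 and Tcf3 sit between 184 and 255 TPM, Id2, Id1 and Tcf12 between 26.4 and 48.9 TPM, and Tcf4 under 1 TPM in every library.

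Stretches within the 250 bases before the transcription starts of Tcf3, Tcf12 and Id2 are shown as the regulatory sequence of members at the high and middle levels. E boxes are in capitals because they are the motif that both families act on. The stretches are the parts of RefSeq promoter windows (assembly GRCm38.p6, 250 bases before each start) that no GENCODE release 21 exon covers, each read 5′ to 3′ on the strand of the gene (all minus), at chr10:80433648-80433885, chr9:72111872-72112069 and chr12:25096254-25096342. Exons cover the 12, 52 and 161 bases between these stretches and the starts. For Tcf12, which has 3 windows, the most upstream is shown, and the Id2 stretch lies between exons of a longer annotated Id2 transcript.
Tcf3: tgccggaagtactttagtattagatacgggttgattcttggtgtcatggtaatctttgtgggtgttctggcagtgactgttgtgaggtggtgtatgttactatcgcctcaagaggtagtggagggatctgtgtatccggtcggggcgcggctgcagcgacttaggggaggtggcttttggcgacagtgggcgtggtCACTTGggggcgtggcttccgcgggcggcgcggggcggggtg
Tcf12: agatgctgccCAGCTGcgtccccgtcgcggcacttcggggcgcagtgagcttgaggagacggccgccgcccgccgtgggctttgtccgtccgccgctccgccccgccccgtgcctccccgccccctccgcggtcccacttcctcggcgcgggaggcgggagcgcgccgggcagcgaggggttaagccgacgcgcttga
Id2: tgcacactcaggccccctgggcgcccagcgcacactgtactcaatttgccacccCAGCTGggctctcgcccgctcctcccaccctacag

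Each stretch held 1 match to CANNTG, the general E box, which reads the same on both strands. In Tcf3 it was CACTTG, beginning 54 bases before the start. In Tcf12 and Id2 it was CAGCTG, beginning 240 and 196 bases before it. The second Tcf12 window, not shown, held CAAGTG in its 249 bases outside exons, and the third lay wholly in exons. CAGCTG is one of the forms that E proteins prefer, with CACCTG and its reverse complement CAGGTG. Such matches are common: 66.2% of 32851 RefSeq windows of 250 bases held CANNTG and 27.7% held one of the preferred forms. The stretches shown are shorter than these windows, at 238, 198 and 89 bases for Tcf3, Tcf12 and Id2. With the exon bases included, each of the 3 windows still held 1 match to CANNTG. The Tcf3 and Tcf12 stretches also held 2 and 4 matches to the GC box GGGCGG or its complement CCGCCC, found in 32.7% of windows. Over all 250 bases the Tcf3, Tcf12 and Id2 windows held 3, 4 and 1 such matches. No binding was measured here, so a match describes letters only.

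A mean of at least 10 TPM was reached by 5 of the 6 members, all but Tcf4, beside 36.2% of all protein-coding genes and 66.4% of the genes that passed the abundance filter of the variability test. The same 5 reached 1 TPM, beside 47.7% of protein-coding genes. Tcf4 passed 1 TPM only when its count was divided by a transcript length in place of the exon union. In the order of levels, Id3 came first, then Tcf3, Id2, Id1, Tcf12 and Tcf4. Id3 exceeded Tcf3 in 4 of 4 libraries, but by only 0.20 ± 0.08 on the log2 TPM scale (SD, n = 4). Tcf3 exceeded Id2 by 2.29 ± 0.29 (log2 TPM), a 4.91-fold gap, in 4 of 4 libraries. Id2 and Id1 did not differ beyond their spread: the difference was 0.15 ± 0.27 (log2 TPM), Id1 was the higher in replicate 1, and a mean as far from 0 came from 6 of the 16 sign patterns (exact two-sided sign-flip permutation test, p = 0.375, n = 4). Id1 exceeded Tcf12 by 0.42 ± 0.23 (log2 TPM) and Tcf12 exceeded Tcf4 by 5.99 ± 0.21, a 63.5-fold gap, each in 4 of 4 libraries. For these 2 differences and for those of Id3 and Tcf3, and Tcf3 and Id2, 2 of 16 sign patterns were as far from 0 (exact p = 0.125, the smallest that n = 4 allows), so no pair could pass 0.05.

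Positions in the middle of that order depend on which length a gene is given. The deposited length is the union of every exon in GENCODE release 13, by which the fragments were counted. It was 15529 bp for Tcf12 and 27382 bp for Tcf4, far more than their longest coding transcripts in GENCODE release 21, 6299 and 8577 bp. For Tcf3 the lengths were 4039 and 2950 bp, for Id3 1791 and 1278 bp, for Id2 1270 and 1969 bp, and for Id1 both were 1160 bp. The longest Id2 transcript of release 21 therefore holds bases outside the exons that were counted. Id2 values by the longest coding transcript below thus divide the count by uncounted bases as well. Divided by the longest coding transcript, Tcf12 rose to the third place with 51.6 ± 4.14 TPM (SD, n = 4), above Id1 at 28.1 ± 2.78 and Id2 at 20.2 ± 2.43. Divided by the median coding transcript, which short partial models pull down, Tcf12 reached 90.1 ± 6.37 TPM, still below Tcf3 at 137 ± 12.95 and Id3 at 155 ± 9.60. Tcf4 had 1.06 ± 0.167 and 3.09 ± 0.468 TPM on these 2 scales. Id3 and Tcf3 stayed first and second and Tcf4 last under all 3 lengths. The differences between neighbours moved too: Tcf12 over Tcf4 was 5.62 with the longest and 4.88 with the median coding transcript (log2 TPM), and Tcf3 over Id2 was 3.38 and 2.81. These lengths were added after the values were seen.

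**Figure D2:**
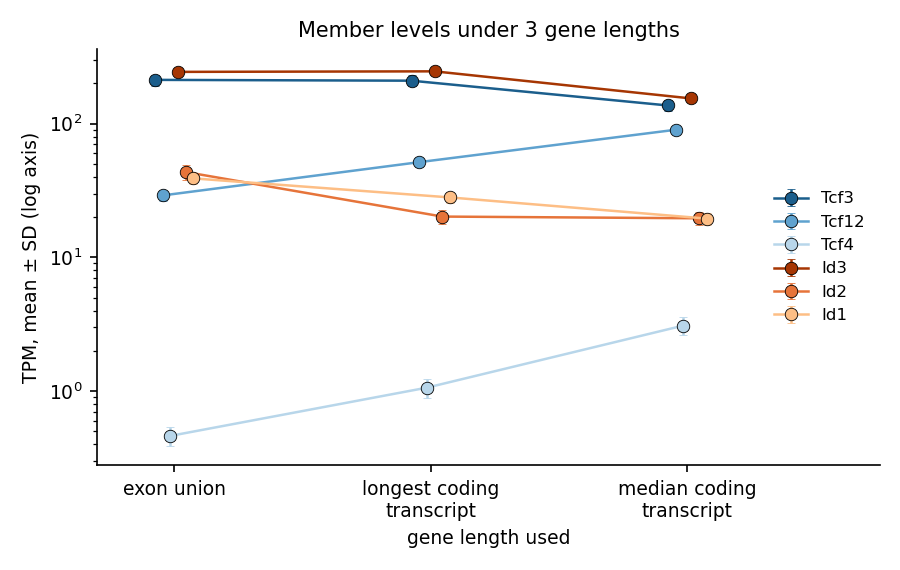
Mean TPM ± SD (n = 4, log axis) of each gene with the count divided by the exon union, by the longest coding transcript or by the median coding transcript. Tcf12 moves from the fifth place at 29.1 TPM to the third at 51.6 and 90.1 TPM, while Id3, Tcf3 and Tcf4 keep their places.

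Summed over each family, each side rested mostly on 1 gene. The E proteins together had 245, 213, 260 and 252 TPM in replicates 1 to 4, and the Id proteins 333, 312, 325 and 337 TPM. The Id sum was the higher in every library by the deposited lengths, with a ratio of 1.36, 1.47, 1.25 and 1.34, or 1.35 ± 0.0879 (SD, n = 4). With the longest coding transcript the ratio was 1.13 ± 0.0642, and with the median coding transcript it turned to 0.843 ± 0.0498, under 1 in every library. In fragments, with no length, the ratio was 0.408 ± 0.0234 (SD, n = 4). Without Id3 and Tcf3 the log2 ratio of the TPM sums was 1.48, against 0.43 with them. The direction of the balance thus differed between these measures. Among libraries, replicate 3 had the lowest ratio under all 3 lengths and in fragments.

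Tcf3 supplied 86.4 to 89.1% of E protein TPM, Tcf12 10.7 to 13.4% and Tcf4 0.144 to 0.251%. By longest coding transcript the Tcf12 share was 19.7 ± 1.71% and by median 39.2 ± 2.49% (SD, n = 4). Id3 supplied 72.9 to 76.7% of Id TPM, Id2 10.8 to 15.7% and Id1 11.1 to 12.7%. The ratio of Id3 to Id2 was less even than that of Id3 to Id1 or to Tcf3. It was 7.08, 4.65, 5.80 and 5.32 in replicates 1 to 4. Replicate 1 had the most Id3 and the least Id2, and replicate 2 the least Id3 and the most Id2. The ratio of Id3 to Tcf3 was narrower, between 1.09 and 1.24.

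**Figure D3:**
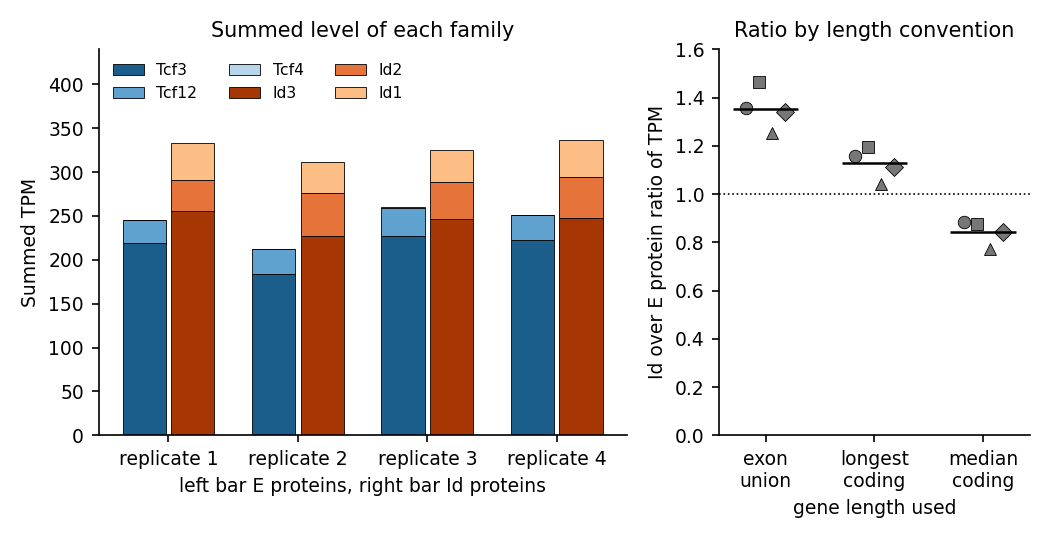
Left, TPM of the E protein genes (blue) and Id genes (orange) stacked in each replicate. Right, the ratio of summed Id to summed E protein TPM in each replicate (symbols as circle, square, triangle and diamond for replicates 1 to 4, line at the mean) under 3 gene lengths; the mean falls from 1.35 to 1.13 and 0.843 across the dotted line at 1.

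Whether any member varied between libraries more than genes of like abundance was tested across all 12396 genes that passed the abundance filter, which kept all 6 members. By edgeR's quasi-likelihood dispersion, 0 of the 6 passed a Benjamini-Hochberg adjusted p of 0.05, where 0.468% of all genes tested did. At an unadjusted p under 0.05 there was 1 member, Tcf3, against 5.33% of all genes. Its quasi-dispersion was 3.65 times the prior (edgeR adjusted p = 0.852). This rested on replicate 2, since without that library it was 0.459 times the prior (edgeR adjusted p = 0.996). For Id3 the value was 2.28 times the prior (edgeR adjusted p = 0.974), for Id1 1.47 (0.986), for Id2 1.22 (0.992), for Tcf12 0.932 and for Tcf4 0.601 (both 0.997). The biological coefficient of variation ran from 6.56% for Tcf12 to 17.6% for Tcf4, beside 6.73% and 18.2% for the trend at their abundance. The fit draws each gene's value towards that trend, so closeness to it is partly built in.

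**Figure D4:**
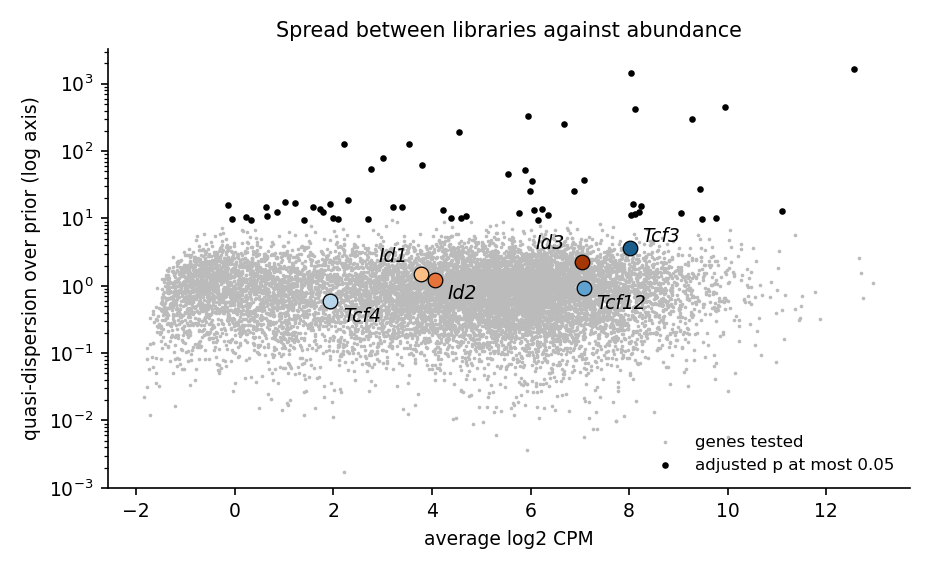
Quasi-dispersion over the prior (log axis) against average log2 CPM for the 12396 genes tested, with the 58 that passed an adjusted p of 0.05 in black and the 6 members in colour. The members lie within the grey cloud, Tcf3 highest at 3.65 and Tcf4 lowest at 0.601.

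The pair of libraries with high Xist, replicates 1 and 2, did not overlap replicates 3 and 4 in TPM for 2 of the 6 members, Tcf3 and Tcf12, both lower in replicates 1 and 2. Of all genes tested, 34.2% did not overlap in either direction and 26.9% lay lower and 7.25% higher in replicates 1 and 2. With TPM taken over protein-coding genes alone, Tcf3 had 248, 192, 235 and 230 TPM in replicates 1 to 4, so that replicate 1 became the highest and the pairs overlapped. Tcf12 had 29.9, 29.8, 33.6 and 29.99 TPM on that scale. The part of the pairing in these levels was not tested.

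Class II partners, the tissue-restricted factors that E proteins pair with to bind DNA, were almost all silent. Of 18, 1 had a mean of at least 1 TPM and 12 had 0 fragments in all 4 libraries, among them Msc, Myod1 and Neurod1. Tal2, a relative of the leukaemia gene Tal1, was the exception with 5.90, 7.86, 5.52 and 5.87 TPM in replicates 1 to 4. Lyl1 had 0.859 ± 0.297 TPM (SD, n = 4) and Bhlha15, a factor of secretory cells, 0.161 ± 0.0487. Of the 2 tested for variability, Tal2 and Lyl1, 0 passed. The list's median was 0 TPM, against 0.520 for all protein-coding genes and 23.2 for all genes tested.

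LIM cofactors, which bridge E protein complexes, were split. Ldb1, the bridging protein itself, had 301 ± 20.8 TPM and Lmo4 20.5 ± 0.153 TPM (SD, n = 4), while Lmo2 had 4 fragments in replicate 3 alone, Lmo1 had 4 in replicate 2 alone and Ldb2 had none. Of 10 coactivators and corepressors, 8 had a mean of at least 10 TPM (list median 28.3 TPM). The acetyltransferase gene Kat2a had 122 ± 4.78 TPM, the corepressor genes Sin3a 99.6 ± 4.46 and Ncor1 85.3 ± 7.08. Of the ETO family, which binds the activation domain of E proteins, Cbfa2t2 had 14.3 to 15.3 TPM, Cbfa2t3 0.0260 to 0.0889 TPM and Runx1t1 0 fragments. Among zinc finger repressors that compete for E boxes, Zeb1 had 23.6 ± 0.720 TPM and Snai3 4.28 ± 0.931, and Snai1, Zeb2 and Snai2 had means under 1 TPM. The variability test called 0 of the 13 tested genes in these 3 lists.

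The list of other helix-loop-helix factors, most of them basic factors such as the Myc and Usf families, which bind E boxes, and also holding Id4, was mostly expressed. Of 26, 21 had a mean of at least 1 TPM and 15 of at least 10, beside 36.2% of all protein-coding genes at 10 TPM. Myc had 497 ± 13.4 TPM, the sterol regulator Srebf2 336 ± 12.8 and Bhlhe40, a repressor induced by activation, 214 ± 12.9 (SD, n = 4). Bhlhe40 was therefore close to Tcf3 in level. Hes1, a Notch target, had 0.284 to 1.07 TPM, and Bhlhe41 had 10 fragments in replicate 1 alone. The variability test called 0 of the 22 tested.

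Genes that act on Id genes or on the stability of these proteins were all present. All 14 listed inducers had a mean of at least 1 TPM and 12 of at least 10, with a median of 33.9 TPM. Stat5b and Stat5a, the mediators of interleukin-2 signals, had 212 ± 5.46 and 202 ± 7.13 TPM (SD, n = 4), and Egr3 had 84.6 ± 6.49. Egr2 had 37.3 to 39.0 TPM and Egr1 24.5 to 31.9 TPM. Receptors for TGF-beta, Tgfbr1 with 72.8 to 90.4 TPM and Tgfbr2 with 53.7 to 62.8 TPM, lay above those for bone morphogenetic proteins, Bmpr2 with 10.3 to 13.4 TPM and Bmpr1a with 1.97 to 2.54 TPM. All 6 turnover genes reached 10 TPM: Cdc20, an activator of the anaphase-promoting complex, had 307 ± 22.7 TPM, Usp1, which removes ubiquitin from Id proteins, 206 ± 22.4 and Fzr1, the other activator, 111 ± 7.98. The variability test called 0 of these 20 genes.

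Genes commonly described as E protein targets in T cells divided by stage. Of 21, 15 had a mean of at least 1 TPM and 14 of at least 10, with a median of 23.1 TPM. The highest were Ccr7, a lymph node homing receptor, with 583 ± 41.0 TPM, Cd4 with 540 ± 31.7 and the cell cycle inhibitor Cdkn1a with 424 ± 23.7 (SD, n = 4). Cd4, Cd3e and Foxp3 are also T cell or regulatory T cell markers, so their presence says nothing further. Targets of the thymic stage were at or near 0: Rag1 had 0.0751 to 0.220 TPM, Ptcra, the pre-T cell receptor alpha chain, had 6 and 4 fragments in replicates 1 and 4 alone, and Rag2 and Gfi1b had none. Cxcr5, a follicle homing receptor, had 13.9 to 16.4 TPM and Il10 0.0575 to 0.277 TPM. None of the 15 targets tested passed the variability test.

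Of 9 targets known from B cells, 3 had a mean of at least 1 TPM and 1 of at least 10. That gene was Pou2af1, a coactivator of octamer-binding factors, with 16.6, 21.1, 32.6 and 29.4 TPM in replicates 1 to 4. Replicates 3 and 4 lay above replicates 1 and 2, and its spread did not pass (edgeR adjusted p = 0.0748, unadjusted p = 0.000374). Cd79b and Cd79a had 1.98 ± 1.19 and 1.03 ± 0.494 TPM (SD, n = 4). Igll1 had 0 fragments in all libraries.

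**Figure D5:**
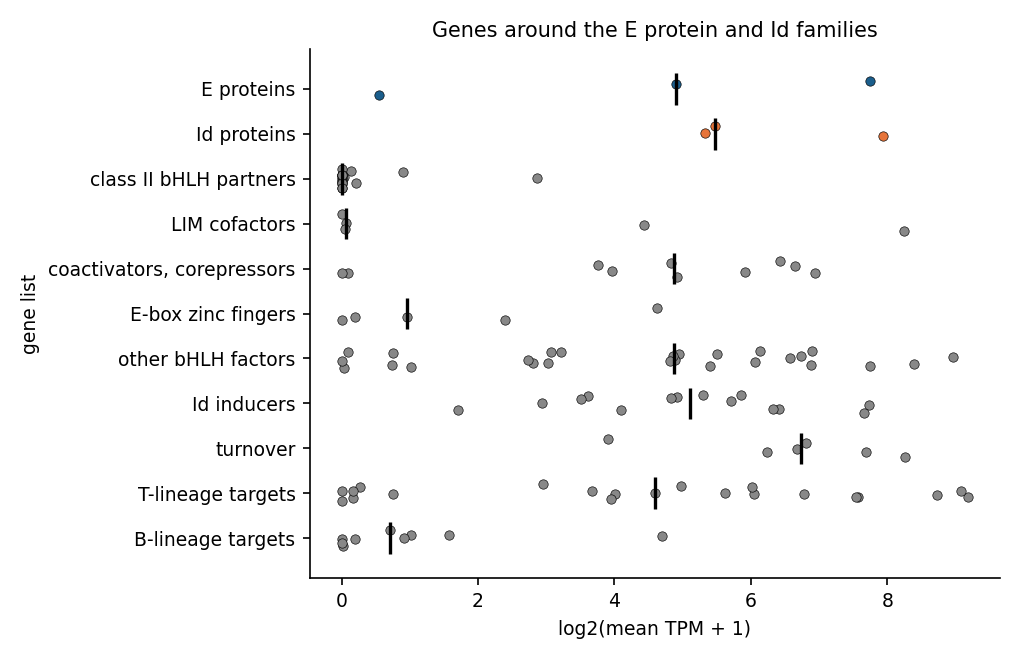
Each point is a gene, placed at log2(mean TPM + 1) over the 4 libraries, by list; vertical bars mark list medians. The medians of class II partners (0 TPM) and B-lineage targets (0.641 TPM) lie near 0, and those of the Id inducers (33.9 TPM) and turnover genes (106 TPM) above the mean of Tcf12.

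The genes closest to each member in level and pattern were found as the smallest root mean square difference of log2(TPM + 1) over the 4 libraries among protein-coding genes. Dpp3, a peptidase gene, was closest to Tcf3 at 0.0564, and Gsk3b, a kinase gene, to Tcf12 at 0.0192. Atxn2l was closest to Id3 at 0.0235, Pnrc1 to Id2 at 0.0264 and Ndufaf7 to Id1 at 0.0543. Pnrc1 followed Id2 from library to library, with 36.5, 49.8, 43.7 and 45.9 TPM in replicates 1 to 4. Such neighbours were not rare, since 174 genes lay within 0.1 of Tcf12, 34 of Id3, 32 of Id2, 18 of Id1 and 9 of Tcf3.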

How the data were processed

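The deposited values are raw fragment counts per gene, made by the authors with featureCounts 1.4.6-p4 per the file headers: pairs with both ends mapped, exons grouped by gene, strand setting 2, GENCODE mouse release 13; the labels give the assembly as mm10. Multi-mapping reads were not requested in the header commands, so near-identical copies lose counts. For the aligner the headers hold only a tag within a name. The labels name the assay total RNA-seq and link a polyA+ library protocol. The deposited tables also give exon union lengths in bp.

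Names came from GENCODE release 21 by identifier without version: 50376 of 50600 matched. TPM was computed from counts and exon union lengths. Spread between libraries was tested in R 4.3.3 with edgeR 4.0.16. Genes were kept by filterByExpr and scaled by TMM, the quasi-likelihood model held an intercept alone, its prior was robust with 1 value of the prior degrees of freedom for all genes, and p came from the upper F tail with Benjamini-Hochberg adjustment at 0.05; it was tested on simulated data. DESeq2 1.42.0 gave size factors for an alternative. Neighbouring levels were compared by sign-flip permutation (exact, two-sided). Promoter windows were those of the RefSeq table for GRCm38.p6, of which Tcf3, Tcf12 and Id2 left bases outside exons.

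The members, the 9 gene lists around them, the 9 marker lists and the tests were chosen with earlier results of these data known. The genes named are the 6 members, the 3 highest of each list, any that passed the variability test, and the closest gene to each member over 1 TPM; further list genes were named after their values were seen, and some list genes are not reported here. A count of 0 allows 3 fragments, and such floors cover counting error only.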

Additional observations from a re-analysis of the deposited data

Results flagged for a closer look

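The 66 values tested were the TPM of the 6 members, their family sums, shares and ratios, and the TPM of the list genes whose values are given. In 5 of them 1 of the 4 libraries stood far from the other 3, and chance flags about 1 value in 20. None of the members was among them. Tal2, a class II partner, had 7.86 TPM in replicate 2 against 5.52 to 5.90 TPM in the others. Egr2, an Id inducer, had 37.3 TPM in replicate 2 against 38.7 to 38.99 TPM in the others. The other 3 were genes counted in 1 library and at 0 fragments in the rest, a pattern that always passes this rule. Lmo1 had 0.194 TPM in replicate 2 (4 fragments), Lmo2 0.132 TPM in replicate 3 (4 fragments) and Bhlhe41 0.123 TPM in replicate 1 (10 fragments).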

How the results depend on the processing

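The exon union was the length used in the deposited tables. The 2 transcript lengths and the bias-adjusted deviance were chosen after seeing the data. The log2 ratio of summed Id to summed E protein level was 0.43 ± 0.09 (SD, n = 4), and between 0.40 and 0.47 when each replicate was left out in turn. It turned to -1.30 with CPM and -0.25 with the median coding transcript, and was 0.17 with the longest coding transcript, 1.48 without Id3 and Tcf3, and 1.84 as a difference of mean log2(TPM + 1), in which Tcf4 weighs as much as Tcf3. The difference between Id3 and Tcf3 turned to -0.97 with CPM, in which lengths do not enter. That between Id1 and Tcf12 turned to -3.32 with CPM, -2.21 with the median and -0.88 with the longest coding transcript. That between Id2 and Id1 turned to -0.48 with the longest coding transcript, which for Id2 is longer than the exons that were counted. No neighbouring pair changed direction when a replicate was left out.

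Levels on the TMM-scaled FPKM scale, a unit with a smaller total, were 63.9 for Tcf3, 0.138 for Tcf4, 8.70 for Tcf12, 11.7 for Id1, 13.03 for Id2 and 73.4 for Id3. By median coding transcript they were 137, 3.09, 90.1, 19.5, 19.6 and 155 TPM in the same order. By longest coding transcript the levels that moved beyond their SD were 1.06 for Tcf4, 51.6 for Tcf12, 28.1 for Id1 and 20.2 for Id2. Id3 had 260 TPM over protein-coding genes alone.

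The count of variable genes, 58, was 110 with no low-count filter, which tests 21459 genes, and 36 with a non-robust prior, whose cause was not tested. It was 37 to 69 when each replicate was left out in turn, lowest without replicate 1. None of the 6 members passed an adjusted p of 0.05 in edgeR under any of the 10 alternatives. Their adjusted p lay between 0.714 and 0.999. No paired analysis was possible because the 4 libraries form 1 group.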
